A study of Mus musculus with 8 samples.

Results

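The cytosolic ribosomal protein genes are those whose symbol is Rpl or Rps with a number, alone or with an a, x or l after it, or Rplp0 to Rplp2, or Rpsa. A gene entered where a probe set (the group of short probes that reports 1 transcript) carried its symbol and no other, and the probe set with the highest mean over all arrays stood for it. This gave 46 members of 18193 genes with such a probe set, 24 of the large and 22 of the small subunit, read by 100 probe sets. A probe set was tested where its normalised log2 signal exceeded the 40th percentile of the array on at least 2 of the 8 arrays, and 43 members passed. Rpl3l and Rpl39l, both paralogs of a standard member, and Rps16 did not pass. Symbols were those of the platform annotation. A further 28 symbols that match the rule occurred only on probe sets with several symbols, so the members are a part of the family. Among well known genes of the family, Rplp1, Rpl3, Rpl5, Rpl10, Rpl10l, Rpl23 and Rps27a had no probe set of their own.

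The arrays measured total RNA from whole liver of male C57BL/6 mice aged 7 to 10 weeks. There were wild type mice and Tob1 null mice, each as normal adults (0 h) or 24 h after ligation of the median and left lateral lobes (partial hepatectomy, a standard model of liver regrowth), with 2 arrays in each of the 4 groups. Each array carried a separate pool of 3 animals, so the spread between arrays is one between pools. Tob1 codes an antiproliferative protein that the series title names as a repressor of liver regeneration. The comparisons asked how each genotype responded to hepatectomy and whether the genotypes differed.

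Ribosomal proteins are made in the cytoplasm, imported into the nucleolus and assembled on ribosomal RNA into a large and a small subunit. Most of their mRNAs start with a C followed by a run of pyrimidines, the terminal oligopyrimidine tract, through which mTOR controls their translation, so their output is set to a large extent after transcription. Regrowing liver is known for an early increase in ribosome production before DNA replication.

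The start sites are shown because the family is defined in mRNA by its tract. RefSeq promoters of the mouse build GRCm38.p6 were matched by symbol for 40 of the 46 members, with 48 entries in all. Each line below holds 30 bases in the direction of transcription, 10 before the annotated start and 20 from it on. Capitals mark the longest C followed by at least 4 C or T. The first 6 genes have the run in this window, with Rps6, Rplp0 and Rpl6 among the members with the smallest p after hepatectomy. Rps27l and Rpl39 are among those with lower values. The run spans the annotated start in Rpl7a and Rps6 alone. In Rpl6 and Rps27l it lies wholly before the start. In Rplp0 and Rpl39 it begins at base 14 and base 7 of the transcript. In these genes the capitals thus do not mark a tract at the annotated start. The last 3 rose when both genotypes were combined and hold no such run in this window.
Rpl7a, chr2:26910797-26910826, plus strand: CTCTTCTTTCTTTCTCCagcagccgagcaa
Rps6, chr4:86857348-86857377, minus strand: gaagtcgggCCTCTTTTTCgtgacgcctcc
Rpl6, chr5:121204491-121204520, plus strand: aCCTCCCgtcattgcttatagaccggaagc
Rplp0, chr5:115559457-115559486, plus strand: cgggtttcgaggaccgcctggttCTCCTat
Rps27l, chr9:66946076-66946105, plus strand: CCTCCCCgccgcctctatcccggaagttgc
Rpl39, chrX:37085203-37085232, minus strand: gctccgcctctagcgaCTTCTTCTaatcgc
Rpl41, chr10:128549149-128549178, minus strand: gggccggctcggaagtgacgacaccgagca
Rps25, chr9:44407704-44407733, plus strand: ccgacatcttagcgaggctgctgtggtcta
Rpl27, chr11:101442235-101442264, plus strand: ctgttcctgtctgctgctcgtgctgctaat

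The run was found in a window of 28 of the 40 members (70%) and of 39.6% of the 27025 genes in the promoter table, which holds genes of every kind. On the opposite strand the same search found it in 27.5% of members and 44.5% of all genes. The letters CCGGAAG, read by ETS family factors, were searched on both strands of the 300 bases and occurred in 20 of 40 members (50%) against 9.93% of all genes. Rpl6 and Rps27l carry them inside the lines above. A search by letters depends on the annotated start, which for a tract of this kind has to be right to the base.

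Label and RNA checks over the whole series bear on every value below. The bright Tob1 probe set read 10.5 and 10.5 log2 in wild type and 11.1 and 11.0 in null arrays at 0 h, and 9.87 and 10.2 against 10.7 and 10.6 at 24 h. A dim Tob1 probe set went the other way at 24 h, with 4.27 and 4.96 in wild type and 2.78 and 3.83 in null arrays, and overlapped at 0 h, with 5.19 and 4.02 against 2.65 and 4.06. The probe sets thus disagree as a check of the labels. The labels do not say which part of the gene was deleted, so the mice are called null-labelled, and which genotype is the higher one is known from the labels alone. Of 10 hepatocyte markers 8 were present, and their summed linear signal ran from 62646 to 70613 over all arrays, with Ass1 alone below 8 log2. Markers of other cells differed between the times. The 5 erythroid markers present, of 8, summed to 1247 to 1280 in wild type at 0 h and 612 to 625 at 24 h, and to 794 to 953 and 370 to 437 in null-labelled liver, nearly all of it from Alas2. The 8 lymphocyte markers present, of 10, summed to 505 to 506 and 254 to 255 in wild type, and to 360 to 365 and 286 to 306 in null-labelled liver. Most of the wild type fall came from Cd74, with 8.27 and 8.23 log2 at 0 h and 6.60 and 6.82 at 24 h. Cd3e, Cd3g, Cd2 and Ms4a1 were below 5 log2 throughout. The log2 ratio of 3' to 5' actin signal, which is larger when RNA is shorter, was 1.22 ± 0.25 and 0.97 ± 0.09 in wild type at 0 h and 24 h, and 1.56 ± 0.03 and 1.27 ± 0.07 in null-labelled liver (SD, n = 2). The stellate markers, all 7 present, summed to 734 to 1072 at 0 h and 534 to 883 at 24 h over both genotypes, the 4 ductal markers present, of 5, to 63.2 to 125 and 122 to 263. The 7 endothelial markers, all present, summed to 1326 to 1337 and 995 to 1215 in wild type and, in the other direction, to 914 to 1110 and 1130 to 1278 in null-labelled liver. These sums rest mostly on Clec4g, Kdr and Stab2. Gene by gene, 4 of the 7 were higher at 24 h in wild type, with a median log2 difference of 0.29. In null-labelled liver 6 of the 7 were higher, with a median of 0.55. The 9 Kupffer and leucocyte markers present, of 10, summed to 2259 to 2528 and 1921 to 2439 in wild type, which overlap, and to 2238 to 2248 and 2373 to 2795 in null-labelled liver, which do not. The part of these shifts in the results below was not tested.

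Most members gave bright signals. The mean log2 signal of 35 members lay between 10.6, for Rpl37, and 13.0, for Rps29, which placed them at the 97.9th to 99.9th percentile of all probe sets. The other 8 that passed read between 3.16, for Rpl39, and 8.17, for Rps6. Signals of different probe sets are not comparable as amounts of RNA, so these values order probes and not genes. Bulk liver holds several cell types, and fewer cells of a type cannot be told apart from less RNA per cell.

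After hepatectomy the family stood slightly higher, as a group, in both genotypes. The median of the 43 members was 0.27 log2 higher at 24 h than at 0 h in wild type (a 1.21-fold difference) and 0.23 higher in null-labelled liver (1.17-fold), against -0.03 over the 14423 genes tested in each response. In each response 40 members were higher and 3, namely Rps29, Rps27l and Rpl39, were lower, with the same members on the same side in both. The middle of the range was narrow, with quartiles at 0.16 and 0.38 in wild type and at 0.12 and 0.35 in null-labelled liver. The large subunit had a median of 0.31 and the small subunit one of 0.23 in wild type, and 0.26 and 0.20 in null-labelled liver.

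**Figure D1:**
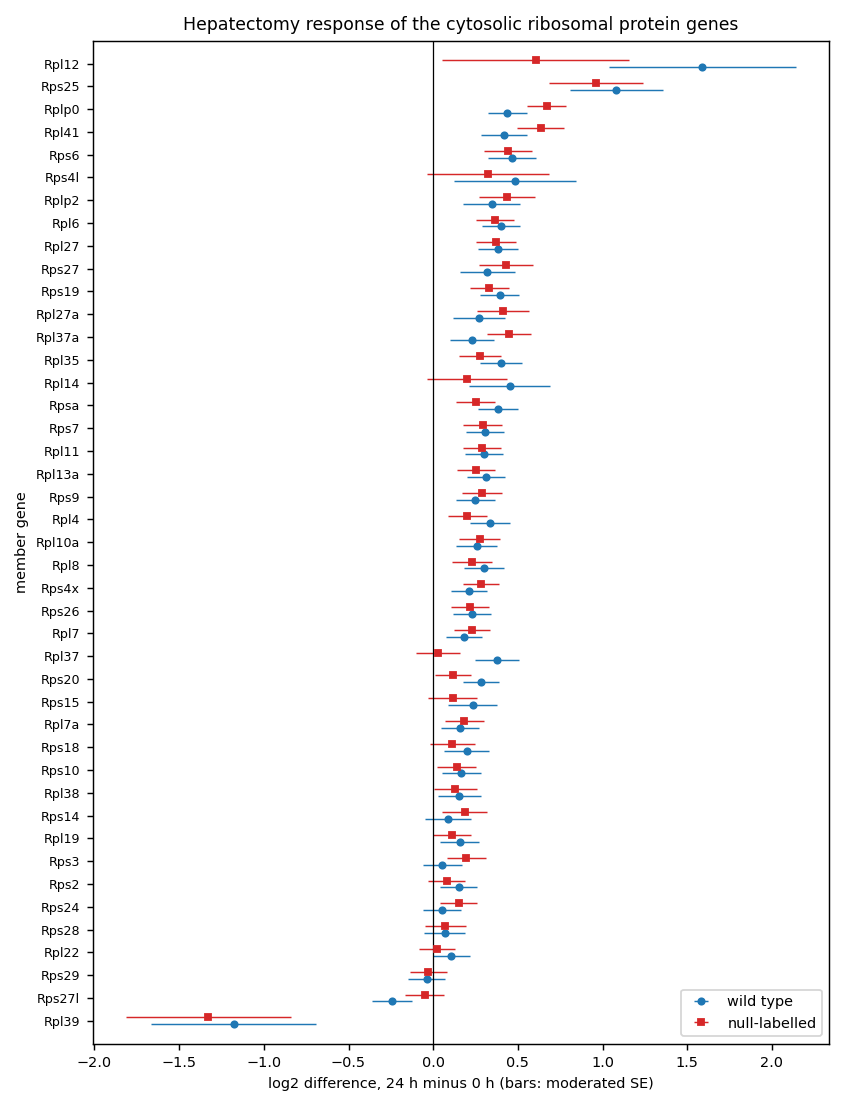
Difference between 24 h and 0 h on the log2 scale (x axis) for the 43 members that passed the filter (y axis, ordered by the mean of both responses), in wild type (circles) and null-labelled liver (squares), with bars of 1 moderated standard error from limma. Both symbols lie right of 0 for 40 members and left of 0 for Rps29, Rps27l and Rpl39, and most bars of both genotypes overlap.

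Read by array, the median signal of the 43 members was 11.51 and 11.51 in wild type at 0 h and 11.69 and 11.68 at 24 h. In null-labelled liver it was 11.58 and 11.60 at 0 h and 11.77 and 11.81 at 24 h. Both arrays at 24 h were above both at 0 h in each genotype, with null-labelled arrays the higher at each time. In 3 of the 4 groups members also moved together between pools: in wild type at 24 h array 2 was above array 1 for only 8 of 43 members, and in null-labelled liver for 30 at 0 h and 32 at 24 h. In wild type at 0 h it was above for 23 and below for 18, and over all genes array 2 was above for 51.3% to 54.6% in the 4 groups. The median difference between the arrays of a group lay between -0.08 and 0.06, so the members are not independent readings of a response.

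Few single members passed the test, which was limma's moderated test with Benjamini-Hochberg adjustment over all genes, two-sided, called at an adjusted p under 0.05. More were called with a stricter filter or a trended robust variance prior, as given in the last section. In wild type 0 of 43 members were called, where 9.28% of all genes were. At an unadjusted p under 0.05 there were 17 of 43 members, beside 29.9% of all genes, and the smallest adjusted p was 0.0636 in limma. The 2 wild type groups did not overlap, with higher signal at 24 h, for 38 of 43 members, against 29.4% of all genes. For 3, Rps29, Rps27l and Rpl39, they did not overlap in the other direction, where no share over all genes was counted. Rpl39 passed the filter only through arrays at 0 h. The median standard error of the members was 0.12 against 0.20 over all genes.

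In null-labelled liver 2 of 43 members rose, Rplp0 and Rpl41, and 0 fell. The background was 14.7% of genes called in either direction and 7.46% called higher. Groups did not overlap, with higher signal at 24 h, for 33 of 43 members, against 29.7% of all genes. That no wild type member was called and 2 null-labelled members were does not show a difference between the genotypes. When the difference itself was tested, 0 members were called, as were 0% of all genes. That test thus cannot show that the responses agree.

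To describe the members by more arrays, the mean of both responses was tested. It adds no arrays to those above and shares all of them. By this measure 13 members rose and 1, Rpl39, was called lower. Rpl39 passed the filter only through 2 arrays at 0 h, so it had to be lower at 24 h and its call is not a result. Over all genes 28.8% were called in either direction and 13.8% called higher. The 4 arrays at 24 h were all above the 4 at 0 h for 22 of 43 members, where this held for 15% of genes. They were all below for 1 member, Rpl39, and the share of genes in that direction was not counted. At an unadjusted p under 0.05 there were 26 of the 43, beside 42.5% of all genes. The number of called members was sensitive to the arrays: it was 3 when any single 0 h array was left out. Without wild type array 1 or 2 at 24 h it was 5 and 9, and without null-labelled array 1 or 2 at 24 h it was 10 and 7.

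Among the large subunit proteins, Rplp0 had the smallest p. It is the base of the P stalk, the flexible arm that recruits translation factors. Its log2 signal was 11.90 and 11.82 in wild type at 0 h and 12.34 and 12.26 at 24 h. In null-labelled liver it was 11.73 and 11.79 at 0 h and 12.40 and 12.45 at 24 h. The groups of different times did not overlap, and the lowest 24 h array was above the highest 0 h array. Its difference was 0.44 ± 0.11 in wild type (moderated SE, n = 2 and 2, adjusted p = 0.0650 in limma) and 0.67 ± 0.11 in null-labelled liver (1.59-fold, adjusted p = 0.0214 in limma). In the mean of both responses Rplp0 rose by 0.55 ± 0.08 (adjusted p = 0.00697 in limma, the smallest of the family), and this call held under every alternative run. Rplp2, which forms the arm of the stalk with Rplp1, was 0.34 ± 0.17 higher in wild type and 0.44 ± 0.17 higher in null-labelled liver, and did not pass in either.

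Rpl41, a very short basic peptide of the large subunit, was the other member called in null-labelled liver. Its signal there was 11.70 and 11.82 at 0 h and 12.36 and 12.43 at 24 h, a difference of 0.63 ± 0.14 (1.55-fold, adjusted p = 0.0347 in limma). In wild type it was 11.68 and 11.73 at 0 h and 12.25 and 12.00 at 24 h, with the arrays at 24 h further apart than in any other group of this gene. The times did not overlap in either genotype, and the mean of both responses was 0.53 ± 0.10 (adjusted p = 0.0130 in limma), a call that ended with median centring, with the mean of all its probe sets or one with a plain ending, and without array 1 of null-labelled liver at 0 h. The null-labelled calls of both genes were lost with the null-labelled 0 h arrays left out singly, and with the second 24 h array of that genotype left out. Median centring and a fit on only the groups compared also ended both. That of Rpl41 was lost as well on deposited values, with no filter, with the mean of all its probe sets or one with a plain ending, and without the first 24 h null-labelled array or either wild type 0 h array.

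The other large subunit members that rose in the mean of both responses were Rpl6, Rpl27, Rpl35, Rpl11, Rpl37a and Rpl13a. The rise of Rpl37a, 0.34, depended on the probe set. Its other bright probe set with 1 symbol, at 11.8 log2, gave 0.02, and its dim one, at 4.37 log2, gave 0.36. Rpl6 read 11.10 and 11.04 in wild type at 0 h, 11.52 and 11.42 at 24 h, and in null-labelled liver 11.14 and 11.10 at 0 h and 11.50 and 11.47 at 24 h. The arrays of a group were closer to each other than to any array of the other time, and the mean of both responses was 0.38 ± 0.08 (adjusted p = 0.0188 in limma). Rpl27 read 11.57 and 11.51, then 11.97 and 11.88 in wild type, and 11.56 and 11.59, then 11.88 and 12.01 in null-labelled liver, and its mean rise was 0.38 ± 0.08 (adjusted p = 0.0210 in limma). Both genes thus moved by like amounts in the genotypes: 0.40 and 0.36 for Rpl6, 0.38 and 0.37 for Rpl27. Their calls ended on deposited values, with median centring, and in fits that left out 1 of the 0 h arrays or array 1 of wild type at 24 h. Rpl11, which with Rpl5 and 5S rRNA can bind and inhibit Mdm2, rose by 0.30 ± 0.08, with 11.35 and 11.35, then 11.66 and 11.65 in wild type, and 11.28 and 11.39, then 11.59 and 11.65 in null-labelled liver. Rpl13a, which also acts in translational silencing outside the ribosome, rose by 0.28 ± 0.08. The adjusted p of these 2 was 0.0379 and 0.0454 in limma.

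**Figure D2:**
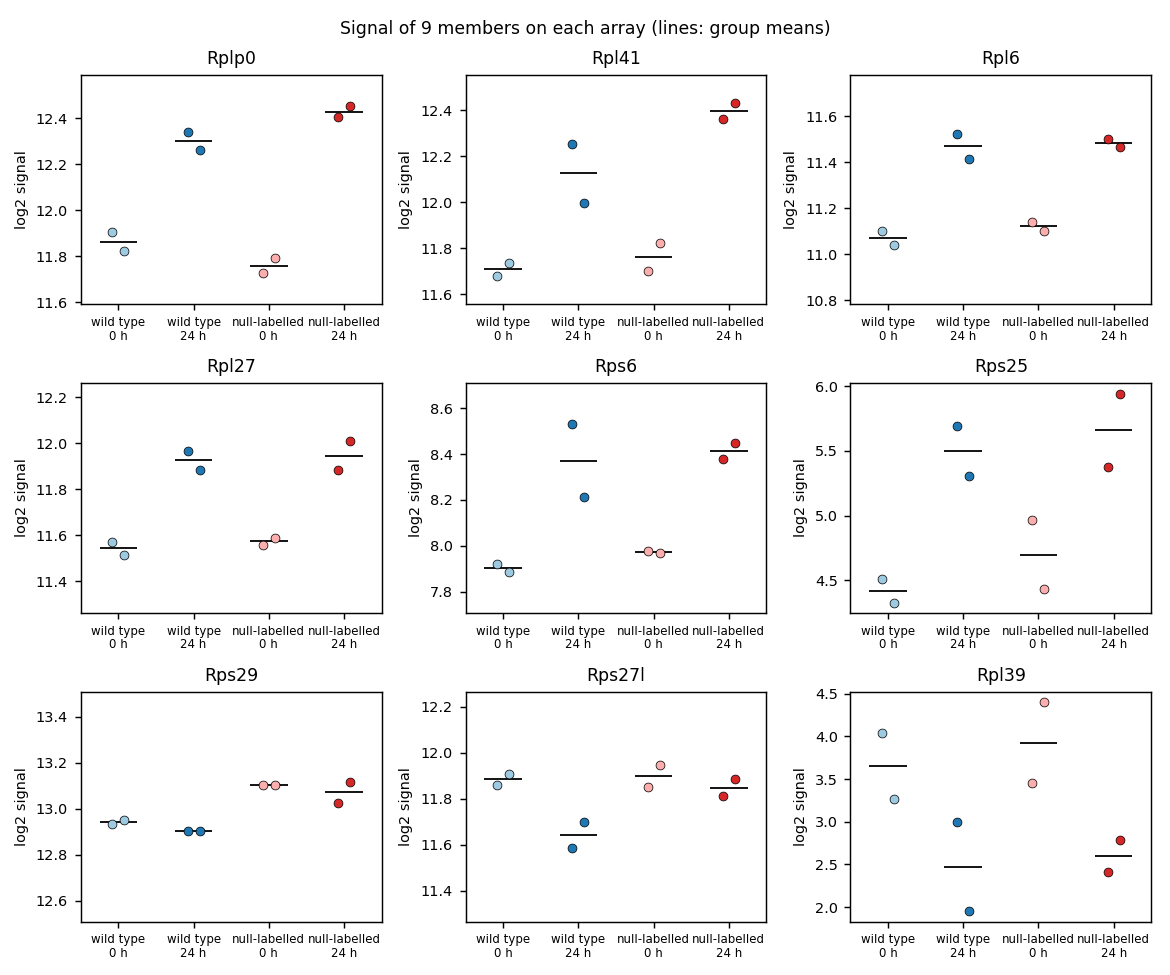
Log2 signal after quantile normalisation (y axis, own range in each panel, at least 1 unit high) of 9 members on each of the 8 arrays, with points for arrays and lines for group means. Rplp0, Rpl41, Rpl6, Rpl27, Rps6 and Rps25 have both 24 h groups above both 0 h groups. Rpl39 has them below, at signals between 1.95 and 4.40, and Rps29 and Rps27l have lower 24 h means by 0.03 to 0.24.

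Among the small subunit proteins, Rps6, Rps19, Rps7, Rpsa and Rps25 rose in the mean of both responses. Rps6 is the substrate of the S6 kinases, and its phosphorylation is a standard readout of mTORC1. Its signal was 7.92 and 7.89 in wild type at 0 h and 8.53 and 8.21 at 24 h, and in null-labelled liver 7.98 and 7.97 at 0 h and 8.38 and 8.45 at 24 h. All 24 h arrays were above all 0 h arrays, and the mean rise was 0.45 ± 0.10 (adjusted p = 0.0218 in limma). The call ended in fits that left out 1 of the 0 h arrays or array 2 of null-labelled liver at 24 h, and with the mean of both Rps6 probe sets. Rps19, the gene most often mutated in human Diamond-Blackfan anaemia, read 10.87 and 10.89, then 11.34 and 11.21 in wild type, and 11.04 and 11.11, then 11.39 and 11.41 in null-labelled liver, and rose by 0.36 ± 0.08 (adjusted p = 0.0229 in limma). Its wild type response, 0.39 ± 0.11, was among the 4 members with the smallest p there and did not pass (adjusted p = 0.0842 in limma).

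Rpsa, also known as the laminin receptor precursor, rose by 0.32 ± 0.08 (adjusted p = 0.0361 in limma). It read 11.17 and 11.28 in wild type at 0 h, 11.66 and 11.55 at 24 h, and in null-labelled liver 11.57 and 11.48, then 11.77 and 11.79. Its null-labelled arrays at 0 h reached the level of a wild type array at 24 h, so the times overlapped across genotypes although not within them. Rpl35, at the exit tunnel, did the same, with 11.44 and 11.47 in null-labelled liver at 0 h and 11.45 on the lower wild type array at 24 h, and rose by 0.34 ± 0.09. Rps4x, the X-linked form of its protein, was 0.21 ± 0.11 and 0.28 ± 0.11 higher in wild type and null-labelled liver and did not pass.

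Rps25, which takes part in initiation at some internal entry sites, had the largest difference among the members called higher, on a dim probe set. It read 4.51 and 4.33 in wild type at 0 h and 5.70 and 5.31 at 24 h, and 4.96 and 4.43 in null-labelled liver at 0 h and 5.38 and 5.94 at 24 h. The groups did not overlap, and the mean of both responses was 1.02 ± 0.20 (2.03-fold, adjusted p = 0.0145 in limma). The brightest probe set annotated with Rps25 and 2 further symbols, at 11.7 log2, gave 0.18.

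Rpl39, a short protein that lines the exit tunnel, was the member called lower, and also the dimmest that passed. It read 4.04 and 3.27 in wild type at 0 h and 2.99 and 1.95 at 24 h, and 3.45 and 4.40 in null-labelled liver at 0 h and 2.42 and 2.78 at 24 h. Only 1 array of each 0 h group was above the filter limit of 3.60, and all 24 h arrays were below it. Since it entered through the time at which it is high, its mean response of -1.25 ± 0.34 is a description, with no test. The brightest probe set annotated with Rpl39 and 1 further symbol, at 12.5 log2, had 0.17 in wild type and 0.14 in null-labelled liver, the opposite sign.

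The same split of probe sets ran through the dim members. Many ribosomal protein genes have processed pseudogenes of nearly the same sequence, and 110 probe sets carried several symbols with a cytosolic ribosomal protein among them. For 8 of the 11 members with a mean signal below 10, a probe set of this kind read above 11 log2. For Rpl12 the member's own probe set, at 3.86, was 1.59 ± 0.55 higher in wild type and 0.60 ± 0.55 in null-labelled liver, and the shared one, with 4 symbols, 0.67 and 0.55. For Rps27 the values were 0.32 ± 0.16 and 0.43 ± 0.16, and on the shared one 0.22 and -0.16, of opposite sign in null-labelled liver. For Rps6, Rpl27a and Rpl14 all signs were the same, with mean responses of 0.45, 0.34 and 0.33 on their own probe sets and 0.23, 0.26 and 0.31 on the shared ones. Reads of a shared probe set cannot be divided between its genes, so these are not values of the member genes.

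Other probe sets of the same genes were mostly higher at 24 h too. The 51 other probe sets of members that passed had a median mean response of 0.23, with 42 higher, and the 103 with several symbols that passed had 0.23, with 92 higher. Probe sets with a mean above 10 were the more uniform: of the 32 not chosen 30 were higher. Of 18 members with at least 2 probe sets above 10, 17 had all of these on 1 side of 0, and the exception was Rps29, at -0.03 to 0.17. With dim ones included, 13 of 21 members with at least 2 probe sets had all on 1 side, and the direction of Rpl22, Rpl27a, Rps10, Rps20, Rps24, Rps29, Rps3 and Rps6 depended on the probe set. Among the probe sets with 1 symbol that do not stand for a gene, dim ones ran from -0.91 for Rpl22 to 1.58 for Rps18, and those with several symbols from -1.32 for Rps19 with a pseudogene to 1.81 for Rps6 with another.

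**Figure D3:**
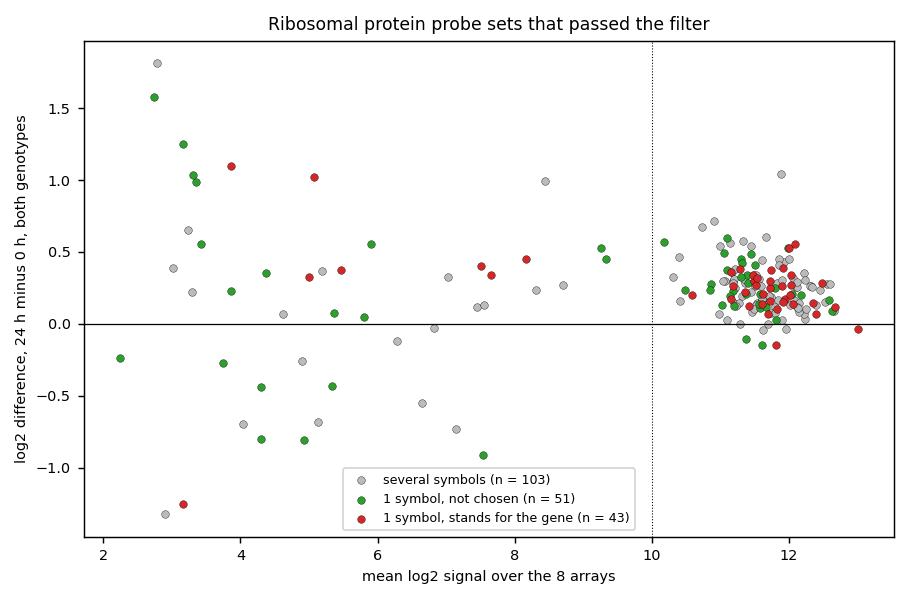
Mean log2 signal over the 8 arrays (x axis) against the mean of both responses on the log2 scale (y axis) for each ribosomal protein probe set that passed the filter: the 43 that stand for members, 51 others with 1 symbol and 103 with several. Right of the dotted line at 10 nearly all points lie between 0 and 0.6, and left of it they spread from below -1 to above 1.5.

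The members without a positive difference were few. Rps29, a small zinc-binding protein and the brightest member, read 12.93 and 12.95 in wild type at 0 h, 12.90 and 12.90 at 24 h, and in null-labelled liver 13.10 and 13.10, then 13.03 and 13.12. Its differences, -0.04 ± 0.11 and -0.03 ± 0.11, were within the error. Rps27l, a paralog of Rps27 known as a p53 target, read 11.86 and 11.91 in wild type at 0 h and 11.58 and 11.70 at 24 h, without overlap, and in null-labelled liver 11.85 and 11.95, then 11.81 and 11.88, with overlap. Its differences were -0.24 ± 0.12 and -0.05 ± 0.12, and neither passed, while all 3 of its probe sets had a mean response below 0, from -0.15 to -0.10. Rpl22, which binds viral and cellular RNAs besides its place in the large subunit, differed by 0.11 ± 0.11 and 0.02 ± 0.11 and did not pass. Its other probe sets with 1 symbol gave 0.26 and 0.21, at 10.5 log2, and -0.99 and -0.83, at 7.54 log2. With all probe sets tested, the mean response of the latter was called lower (-0.91, adjusted p = 0.0215 in limma). Rpl22l1, the paralog of Rpl22 and outside the symbol rule, rose by 0.98 ± 0.18 in wild type and 1.13 ± 0.18 in null-labelled liver (adjusted p = 0.0319 and 0.0195 in limma).

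Between the genotypes the members lay slightly higher in null-labelled liver at both times, with no member called. At 0 h the median was 0.10 against 0.01 over all genes, with 40 of 43 higher. Of the members 0 were called in limma, as were 0% of all genes, and 2 had an unadjusted p under 0.05, beside 9.64% of all genes. Groups did not overlap, with null-labelled liver higher, for 24 of 43 members, against 24.3% of all genes. The smallest p at 0 h belonged to Rpsa, Rpl35, Rps15 and Rpl22. Rpsa differed by 0.30 ± 0.12 (95% interval 0.02 to 0.59), Rpl35 by 0.31 ± 0.12 and Rps15 by 0.32 ± 0.14. Rpl22 read 11.51 and 11.57 in wild type and 11.78 and 11.78 in null-labelled liver. The smallest adjusted p among members was 0.509 in limma.

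At 24 h the median was 0.12 against 0.01, with 37 of 43 higher. Here 0 members were called in limma, against 0.00693% of all genes, and 0 had an unadjusted p under 0.05, beside 11.8% of all genes. Groups did not overlap for 23 of 43 members in this direction, against 21% of all genes. For 3, Rpl37, Rpl4 and Rpl11, they did not overlap in the other direction, where no share over all genes was counted. Rplp2 had the smallest p, with 11.94 and 11.89 in wild type and 12.52 and 12.10 in null-labelled liver, a difference of 0.40 ± 0.17 that rests mostly on 1 array. Rps3, Rpl41 and Rpl37a followed with 0.23 ± 0.11, 0.27 ± 0.14 and 0.25 ± 0.13. The other bright probe set of Rpl41 gave 0.27 as well, and its 2 dim ones -0.84 and -0.66. The other probe sets of Rps3 gave 0.22 and -0.09. The comparisons at 0 h and 24 h are within time and the responses within genotype, so each array enters 2 of these 4 comparisons. The 3' to 5' actin ratios given above differed between genotypes at both times. The same ratio of Gapdh was 0.23 ± 0.07 in wild type and 0.52 ± 0.02 in null-labelled liver at 0 h. At 24 h it was 0.07 ± 0.10 and 0.16 ± 0.12, and the arrays overlapped (SD, n = 2).

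The responses of the genotypes were then compared directly. The median of the difference, null-labelled minus wild type response, was -0.02 against 0.00 over all genes, with 17 members higher and 26 lower. In limma 0 members were called, as were 0% of all genes, and 0 had an unadjusted p under 0.05, beside 8.63% of all genes. The members with the smallest p were Rpl37, Rplp0, Rpl12 and Rpl37a. For Rpl37a the difference was 0.22, with -0.14 on its other bright probe set and 0.66 on its dim one. Rpl37, a zinc-finger protein of the large subunit, was 0.38 ± 0.13 higher at 24 h in wild type and 0.03 ± 0.13 in null-labelled liver, a difference of -0.35 with a 95% interval of -0.80 to 0.10. Rplp0 had a difference of 0.23 with an interval of -0.16 to 0.62. The intervals of these members allow a difference as large as the responses themselves.

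The scaling of the arrays set the size of the shift. The deposited values, without further normalisation, gave a median of 0.15 in wild type with 36 of 43 members higher, and 0.06 in null-labelled liver with 30 higher. On those values the array medians of the members were 11.58 and 11.62 in wild type at 0 h and 11.57 and 11.67 at 24 h, and 11.66 and 11.70, then 11.65 and 11.68 in null-labelled liver, so the times overlapped in both. Within each array, which no scaling of the whole array changes, the 35 bright members had a median percentile among all probe sets of 99.14 and 99.15 in wild type at 0 h and 99.38 and 99.37 at 24 h. In null-labelled liver it was 99.29 and 99.34 at 0 h and 99.42 and 99.49 at 24 h. By rank the times did not overlap within a genotype. Median centring moved the median of all genes in the null-labelled response to 0.12, and the members, at 0.23, were then 0.11 above it. Among all genes called in that response 1256 were then higher and 473 lower, against 1076 and 1048 after quantile normalisation. The difference between the responses changed sign with median centring, to 0.04 with 33 members higher, where all genes were at 0.12.

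**Figure D4:**
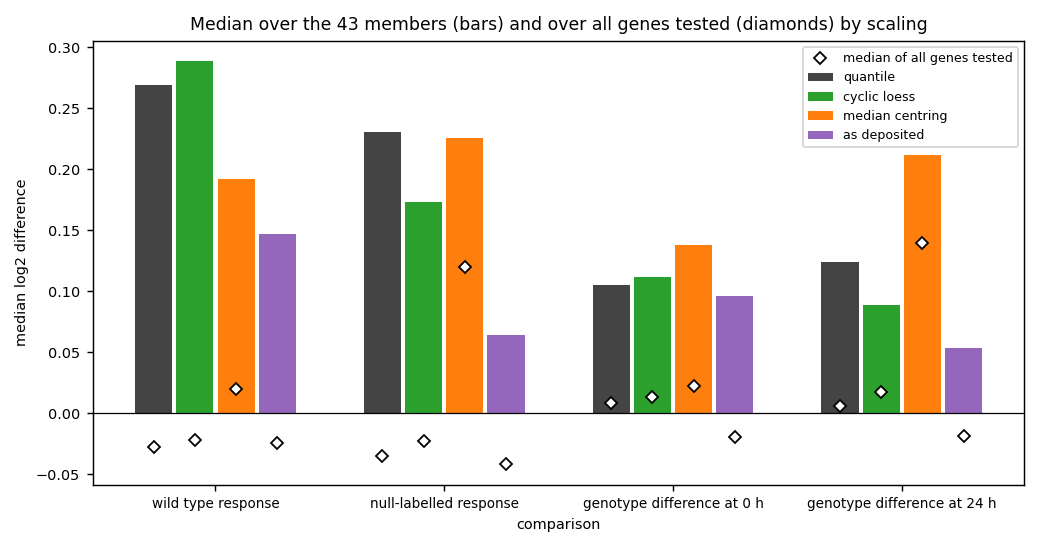
Median log2 difference (y axis) over the 43 members (bars) and over all genes tested (diamonds) in 4 comparisons (x axis), under 4 scalings of the arrays. The member median is above that of all genes in each case, by 0.07 to 0.31, and the smallest gap is in the genotype difference at 24 h.

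Members with and without these letters had like medians in the mean of both responses. The run was counted anywhere in the 30-base window and the ETS letters anywhere in the 300 bases. The members were thus not split by a tract at the start itself. Among members that passed, the 26 with a pyrimidine run had 0.28 and the 11 without had 0.27. In wild type alone these were 0.26 and 0.34, and in null-labelled liver 0.26 and 0.25. In the mean of both responses the 19 with the ETS letters had 0.30 and the 18 without had 0.27. These are descriptions of the groups, without a test.

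Other genes of the pathway are given by lists chosen with earlier results of these data known, as counts in the mean of both responses. Over all genes 13.8% were called higher, 2171 of 14423 were called lower and the median was -0.04, which each count below is to be read against. Of 36 genes of RNA polymerase I and ribosome assembly 17 rose and 2 fell, with a median of 0.46. Polr1e, a subunit of the polymerase, rose by 1.47 ± 0.17, Nhp2, of the box H/ACA particles that modify rRNA, by 1.17 ± 0.16, and Ncl, the nucleolar protein nucleolin, by 0.92 ± 0.11. Of 15 chaperones and importers of ribosomal proteins 8 rose and 0 fell, with a median of 0.42, among them Kpnb1, an importin, by 1.08 ± 0.11, and Tsr2, the escort of Rps26, by 0.69 ± 0.10. Adjusted p in limma ran from 0.00342 to 0.00702 for these 5.

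The factors that use the ribosome were as mixed in size. Of 45 genes with a symbol of Eif and a number, 18 rose and 5 fell, with a median of 0.21. They were chosen by symbol, so not all are initiation factors. Eif4ebp2, an inhibitor named below, is among those that fell. Eif6, which keeps the large subunit from joining too early, rose by 1.76 ± 0.18, and Eif4e, the cap-binding protein, by 0.93 ± 0.09. Of 7 elongation and release factors 3 rose and 0 fell, with a median of 0.26. Of 17 other genes known for a terminal oligopyrimidine tract 8 rose and 1 fell, with a median of 0.29. This list shares its Eef genes with the elongation list and its Eif genes with the first, so the counts are not separate. The gene that fell was Eif4b, by 0.51 ± 0.09, and Npm1, also in the assembly list, rose by 0.88 ± 0.16. Fau, whose product includes the small subunit protein eS30, and Rpl7l1, an assembly factor related to Rpl7, rose by 0.61 ± 0.11 and 0.61 ± 0.09.

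Of the 15 genes of the mTORC1 and S6 kinase list 0 rose and 4 fell, with a median of -0.08, near that of all genes. In wild type the median was -0.01, with 7 of 15 higher and 1 called lower, where 735 of 14423 genes were called lower. In null-labelled liver it was -0.29, with 4 higher and 3 called lower, where 1048 of 14423 genes were called lower. These counts do not show a difference between the genotypes. In the difference between the responses 0 of the 15 were called, as were 0% of all genes. A test that called no gene cannot show that the responses agree. The median of the list there was -0.24, with 2 of 15 higher, against 0.00 over all genes. The 4 that fell in the mean of both responses are inhibitors in the pathway: Deptor by 1.90 ± 0.28, Tsc1 by 0.79 ± 0.11, Tsc2 by 0.67 ± 0.11 and Eif4ebp2 by 0.36 ± 0.10. The list was drawn up from activators and inhibitors, and no other gene of it was called in that mean. The activity of the pathway was not tested. Of 76 mitochondrial ribosomal protein genes, which serve a separate ribosome, 17 rose and 3 fell, with a median of 0.15. Their median was 0.07 in wild type and 0.26 in null-labelled liver, beside 0.27 and 0.23 for the cytosolic family, and no test was made of this contrast between families. Of the 9 members whose human forms are mutated in Diamond-Blackfan anaemia 4 rose, namely Rpl27, Rps19, Rpl11 and Rps7.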

How the data were processed

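Signals of 45101 probe sets on 8 arrays were used in log2 units as deposited. The log2 values were scaled before they were deposited, since the 2% trimmed mean of the linear signal was 95.1 to 99.9 on every array, as read from the values. The signal algorithm is not stated in the labels. The 64 control probe sets were left out, and the arrays were quantile normalised because their 50th percentiles differed by 0.38. The filter (above the 40th percentile on at least 2 arrays, a limit of 3.60) left 14423 genes. With limma 3.58.1 (R 4.3.3), 1 mean per group was fitted over the 8 arrays (4 residual and 2.02 prior degrees of freedom), with Benjamini-Hochberg adjustment over all genes and calls at 0.05. Errors are moderated standard errors or, where stated, SD. The number of arrays limits the precision. Scripts were tested on simulated data.

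The members, lists and tests were chosen with earlier results of these data known. Named members were, per comparison, up to 6 called in each direction with the largest change, or the 4 with the smallest p where fewer than 4 were called, a fixed set of well known members, and those below the filter limit; others are named to account for dim probe sets. Of each other list up to 4 genes with the smallest p could be named, and not all of them are. Same-numbered arrays did not deviate together (correlations of -0.20 to 0.05), so the numbers were not used as pairs. Alternatives were other scalings, filters, probe set choices, variance priors, a replicate block, fits on the groups compared and each array left out. Start windows were read from RefSeq promoters (GRCm38.p6).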

Additional observations from a re-analysis of the deposited data

How the results depend on the processing

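The medians of the members kept their sign under every alternative in the wild type, null-labelled, pooled and both genotype comparisons. In the wild type response (0.27) the median was 0.15 on deposited values, 0.19 with median centring, 0.29 with cyclic loess, 0.29 with no filter and 0.38 with plain probe set endings. In the null-labelled response (0.23) it was 0.064 on deposited values, 0.17 with loess and 0.31 with plain endings. The mean of both responses (0.27) was 0.11 on deposited values, 0.21 with median centring, 0.23 with loess, 0.24 with the mean of all probe sets and 0.34 with plain endings. The genotype difference at 0 h was 0.14 with median centring. That at 24 h was 0.053 on deposited values, 0.21 with median centring, 0.089 with loess, 0.075 with the mean of all probe sets and 0.044 with plain endings. The difference between responses (-0.02) was -0.074 on deposited values, 0.043 with median centring, -0.083 with loess and -0.15 with plain endings. With settings chosen after seeing the data, the bright members alone gave 0.23, 0.088 and 0.22 for the wild type response, the 0 h genotype difference and the mean response, and the probe sets with several symbols gave 0.24, 0.13, 0.096, -0.043 and 0.23 for these 2, the 24 h genotype difference, the difference between responses and the mean response. The cause of these shifts was not tested.

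The count of called members in the wild type response, 0, was 7 with the filter at the 60th percentile and 16 with a trended robust prior. In the null-labelled response, 2, it was 1 on deposited values, with no filter, with the mean of all probe sets and with plain endings, 0 with median centring and on only the groups compared, and 7 and 16 as above. In the mean response, 14, it was 7 on deposited values, 5 with median centring, 7 with no filter, 22 with the filter at the 60th percentile, 9 with the mean of all probe sets, 8 with plain endings and 25 with the trended prior. With a replicate block, which the data do not support as a pairing, 0 members were called in the null-labelled response and 7 in the mean response. Both genotype comparisons and the difference between responses had 0 called members in every fit. Over all genes, in the mean response, 2020 were called higher and 2002 lower on deposited values, and 2214 and 1331 with median centring. In the main fit these were 1985 and 2171. For the other settings the share of all genes called is not given here, so those counts have no background to be read against.

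Leaving out single arrays gave 0 called members in wild type, 0 to 2 in null-labelled liver and 3 to 10 in the mean response. The medians ran from 0.25 to 0.30 in wild type, 0.23 to 0.27 in null-labelled liver, 0.24 to 0.28 for the mean response, 0.068 to 0.11 and 0.069 to 0.16 for the genotype differences at 0 h and 24 h, and -0.058 to 0.037 for the difference between responses. A group then holds 1 array, assumed to vary like the others.

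Of 462 values for 27 named results, 398 stayed on their side of the threshold, 49 lost and 12 gained a call, and 3 changed sign. At 24 h the genotype difference of Rps3 was -0.090 with plain endings, and that of Rpl41 -0.24 with the mean of all probe sets and -0.66 with plain endings.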
